A study of Mus musculus with 8 samples.

Results

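Immediate early genes are the first genes that a cell switches on after a stimulus, and 10 of them were followed here in the livers of 8 mice: Fos, Fosb, Jun, Junb, Egr1, Atf3, Klf6, Ier2, Ier3 and Zfp36. They were taken by symbol, as a set chosen with earlier results of these data known, and all 10 were among the 25239 gene symbols counted and among the 12977 genes with enough reads to be tested. The livers came from adult male mice carrying 2 floxed copies of Smo on a C57Bl6/J background, all kept for 6 weeks on the CDA-HFD, a choline-deficient, amino acid–defined high-fat diet that induces steatohepatitis. A week before sacrifice, 4 control mice received AAV8-TBG-Luciferase and 4 Smo-KO mice received AAV8-TBG-Cre Recombinase. The TBG promoter is active in hepatocytes, so Cre was aimed at these cells while the RNA came from whole liver. In such bulk RNA, fewer cells of a type and less RNA per cell cannot be told apart.

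Immediate early genes need no new protein to be transcribed, because the kinases and transcription factors that act on them are already in the cell, and their mRNAs are short-lived. Fos and Jun proteins pair to form AP-1, Egr1, Klf6 and Atf3 encode other DNA-binding factors, and Zfp36 encodes tristetraprolin, which binds AU-rich mRNA tails and hastens their decay. In liver these genes are known for their quick response to partial hepatectomy, cytokines, growth factors and cell stress.

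The reads counted on genes ranged from 9177277 to 9999732 in control livers and from 8203299 to 9543675 in Smo-KO livers. Levels are given as CPM, read counts per 1000000 reads on genes after TMM scaling of the libraries, and 3 reads correspond to 0.297 to 0.366 CPM. Smo itself checked the labels. It was at 8.17, 8.49, 8.74 and 8.21 CPM in control mice 1 to 4 and at 5.67, 3.93, 4.27 and 4.37 CPM in Smo-KO mice 1 to 4, so that the groups did not overlap (exact permutation test, two-sided p = 0.0286, the smallest that 4 against 4 mice allow). In edgeR's quasi-likelihood test across all genes the log2 fold change of Smo (Smo-KO over control) was -0.88 with a standard error of 0.16, and p was 0.0957 after Benjamini-Hochberg adjustment.

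The 10 immediate early genes were on average higher in control than in Smo-KO livers, with the highest values in control mouse 2 for 8 of the 10, and the difference was smaller without this mouse. Fos, Zfp36 and Jun stood lowest in Smo-KO livers, at 40.4%, 51.4% and 64.2% of the control mean. No gene of the 10 passed an adjusted p of 0.05 in edgeR's test, where 0% of all genes tested did, and 0 of 10 passed in DESeq2's Wald test, where 1.29% of all genes did. At an unadjusted p under 0.05, 3 of the 10 (Fos, Jun and Zfp36) were lower and 0 were higher in edgeR's test, against 7.15% of all genes lower and 13.8% in either direction. In DESeq2's test 4 of the 10 (also Junb) were lower at an unadjusted p under 0.05, against 6.06% of all genes. In 0 of 10 did the values of the groups separate, while for 4.34% of all genes the highest Smo-KO value was below the lowest control value.

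**Figure D1:**
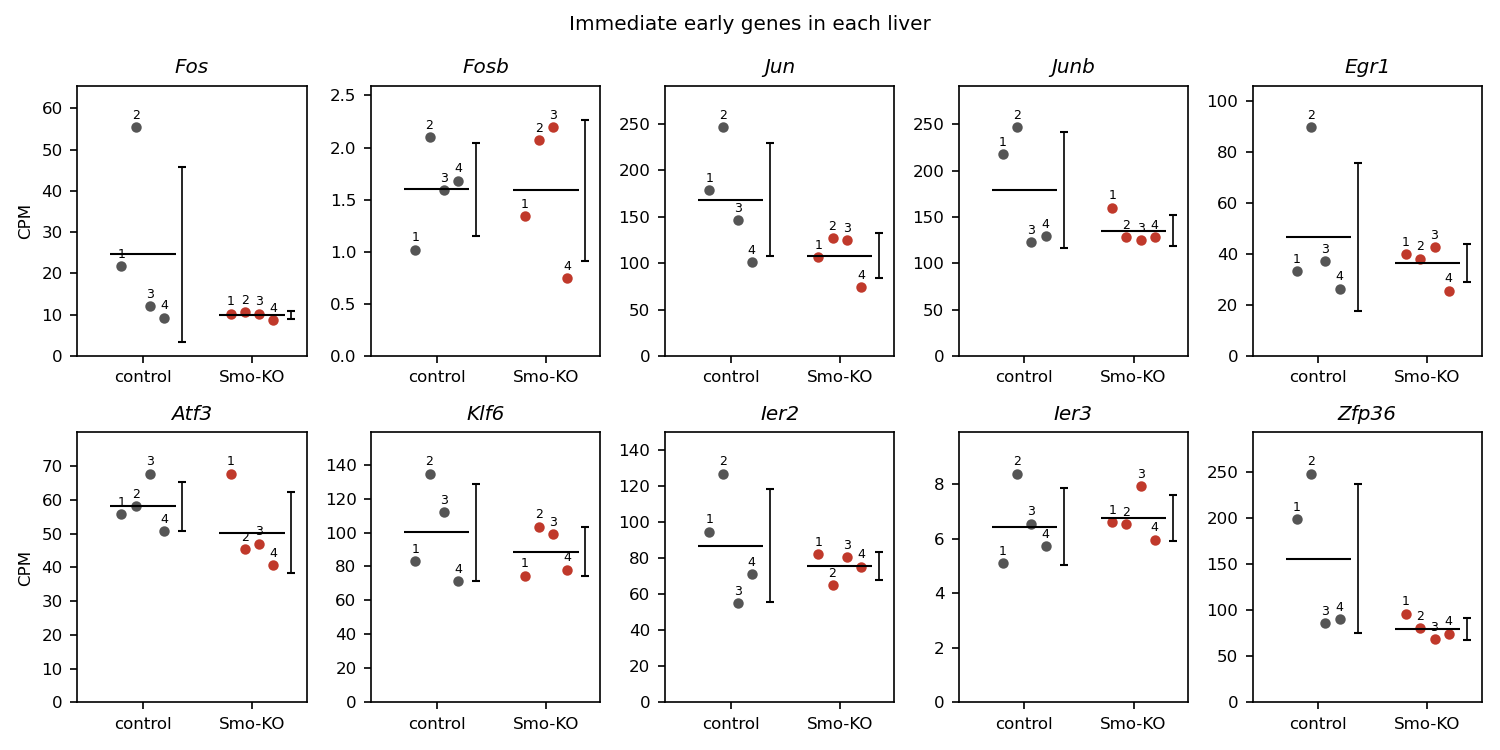
CPM (y axis, from 0) of each immediate early gene in the 4 control and 4 Smo-KO livers (x axis); each point is 1 liver with its mouse number, the horizontal line is the group mean and the bar beside it the SD. Control mouse 2 is the highest control liver in 9 of 10 genes, and the Smo-KO livers lie close together for Fos (8.64 to 10.7 CPM).

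Among the genes of the AP-1 dimer, Fos, on chromosome 12 (GRCm38, 85473890 to 85477273), had the lowest fold change. It was at 21.8, 55.5, 12.0 and 9.30 CPM in control mice 1 to 4 and at 10.2, 10.7, 10.2 and 8.64 CPM in Smo-KO mice 1 to 4. Control mice 1, 2 and 3 lay above all Smo-KO mice, whereas control mouse 4 lay within their range. The means were 24.6 ± 21.2 CPM in control and 9.94 ± 0.899 CPM in Smo-KO livers (SD, n = 4 each). The log2 fold change was -1.30 (standard error 0.45) at an unadjusted p of 0.0119 and an adjusted p of 0.241 in edgeR's test, and the exact permutation p of the CPM values was 0.114. Without control mouse 2 the control mean was 14.4 ± 6.56 CPM (SD, n = 3), and the log2 fold change was -0.52 (standard error 0.24, adjusted p 0.426 in edgeR's test). The coefficient of variation of Fos was 86.2% among control and 9.05% among Smo-KO livers.

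Jun, the partner of Fos, on chromosome 4 (95049034 to 95052222), had the same order of the control mice. It was at 179, 247, 147 and 101 CPM in control mice 1 to 4 and at 107, 127, 125 and 74.3 CPM in Smo-KO mice 1 to 4. Again control mice 1, 2 and 3 were above every Smo-KO mouse and control mouse 4 was not. Jun averaged 168 ± 61.1 CPM in control and 108 ± 24.3 CPM in Smo-KO livers (SD, n = 4 each). Its log2 fold change was -0.64 (standard error 0.23, unadjusted p 0.0162, adjusted p 0.260 in edgeR's test), and the exact permutation p of the CPM values was 0.143. Without control mouse 2 the log2 fold change of Jun was -0.39 (standard error 0.20, unadjusted p 0.0763, adjusted p 0.464 in edgeR's test).

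Junb, another Jun protein, which acts as a weaker activator than Jun at many sites, separated the control mice into pairs. It was at 218 and 247 CPM in control mice 1 and 2 and at 123 and 129 CPM in control mice 3 and 4. Smo-KO mice 1 to 4 had 160, 128, 125 and 128 CPM, so control mouse 3 lay below all Smo-KO mice and control mouse 4 within their range. The log2 fold change was -0.40 (standard error 0.20, unadjusted p 0.0653, adjusted p 0.394 in edgeR's test), and -0.21 (standard error 0.18) without control mouse 2. Fosb, a relative of Fos, had from 7 to 20 reads per liver, 1.60 ± 0.443 CPM in control and 1.59 ± 0.677 CPM in Smo-KO livers (SD, n = 4 each), the fewest reads of the 10 genes.

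Of the other DNA-binding factors, Egr1 rested on a single liver. This zinc finger protein, induced through the serum response factor, was at 33.3, 89.9, 37.3 and 26.4 CPM in control mice 1 to 4 and at 39.9, 38.2, 42.7 and 25.6 CPM in Smo-KO mice 1 to 4. Control mouse 2 had 2.41 times the next control value, and all other control mice lay within the Smo-KO range. The log2 fold change of Egr1 was -0.35 (standard error 0.31) with all livers and 0.18 (standard error 0.17) without control mouse 2, with adjusted p of 0.655 and 0.710 in edgeR's test. Atf3, a stress-induced member of the ATF family, was the 1 gene of the 10 with its highest control value outside mouse 2. It ranged from 50.6 to 67.8 CPM in control livers, highest in mouse 3, and from 40.6 to 67.7 CPM in Smo-KO livers, highest in mouse 1 (log2 fold change -0.21 ± 0.15 standard error, with 0.564 as adjusted p in edgeR's test). Without Smo-KO mouse 1 the log2 fold change of Atf3 was -0.38 (standard error 0.12), and without Smo-KO mouse 4 it was -0.12 (standard error 0.15). Klf6, a Krüppel-like factor expressed in several liver cell types, ranged from 71.2 to 135 CPM in control and from 74.5 to 103 CPM in Smo-KO livers (log2 fold change -0.18, standard error 0.18), and without control mouse 2 its log2 fold change was 0.0028.

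Zfp36, on chromosome 7 (28376784 to 28380253), whose protein limits the lifetime of many immediate early and cytokine mRNAs, had the smallest p-value of the 10. It was at 199, 248, 85.8 and 90.0 CPM in control mice 1 to 4 and at 96.1, 80.5, 68.7 and 74.4 CPM in Smo-KO mice 1 to 4. Control mice 1 and 2 were over 2 times as high as any Smo-KO mouse, while control mice 3 and 4 lay below Smo-KO mouse 1. Zfp36 averaged 156 ± 80.7 CPM in control and 79.9 ± 11.8 CPM in Smo-KO livers (SD, n = 4 each). The log2 fold change was -0.96 (standard error 0.29, unadjusted p 0.00567, adjusted p 0.199 in edgeR's test), and the exact permutation p of the CPM values was 0.114. Without control mouse 2 it was -0.64 (standard error 0.25, unadjusted p 0.0245, adjusted p 0.344), and without control mouse 1 it was -0.82 (adjusted p 0.251).

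The remaining genes encode small regulators. Ier2, a nuclear protein of the growth response, was at 94.6, 127, 54.9 and 71.0 CPM in control mice 1 to 4, and from 64.9 to 82.2 CPM in Smo-KO mice. Control mice 1 and 2 were above all Smo-KO mice and control mouse 3 was below all of them (log2 fold change -0.20 ± 0.20 standard error, with 0.704 as adjusted p in edgeR's test). Ier3, which modulates survival and NF-κB signaling, was low, from 5.10 to 8.39 CPM in control and from 5.97 to 7.93 CPM in Smo-KO livers, and was the 1 gene with a positive log2 fold change (0.06 ± 0.18 standard error, with 0.912 as adjusted p in edgeR's test). Its sign turned without control mouse 1 (-0.029) and without Smo-KO mouse 3 (-0.019).

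**Figure D2:**
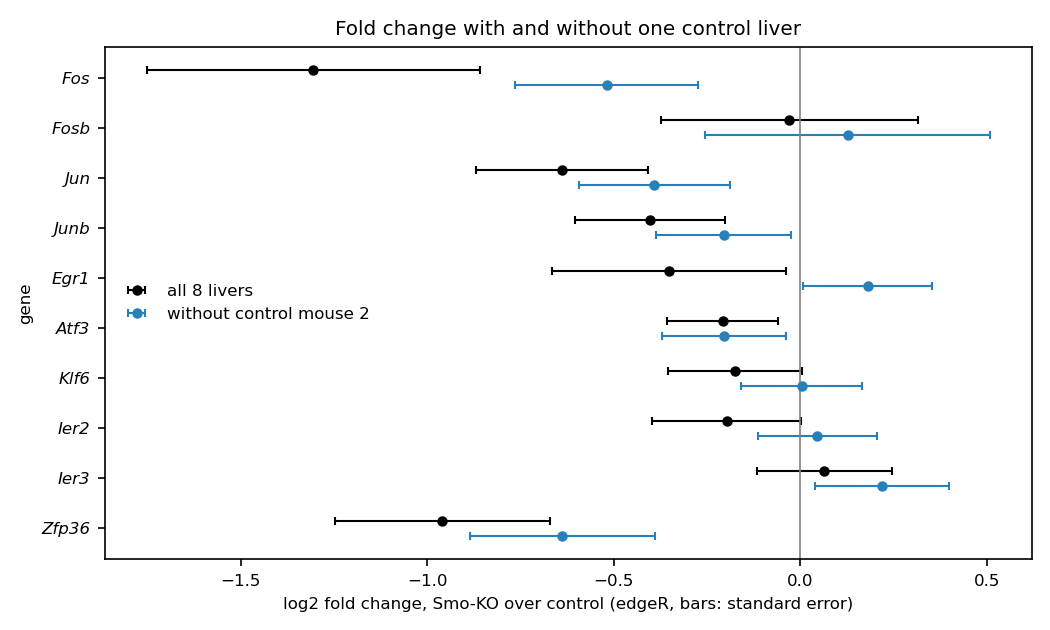
Log2 fold change of each immediate early gene (x axis, Smo-KO over control, edgeR) with its standard error, for all 8 livers (black) and without control mouse 2 (blue). All 10 points move to the right or stay in place, Fos from -1.30 to -0.52, and Egr1, Klf6, Ier2 and Fosb cross 0.

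The median log2 fold change of the 10 genes was -0.28, beside -0.00084 for all genes tested, and 9 of the 10 were below 0, as were 50.1% of all genes. Leaving out control mouse 2 moved the median to -0.10, with 5 of 10 genes below 0, and left 1 gene (Zfp36) lower at an unadjusted p under 0.05, against 5.83% of all genes in that fit. Leaving out control mouse 1 left the median at -0.28, with 10 of 10 genes below 0 and 3 lower at that p, against 7.29% of all genes. There were 5 such genes without control mouse 3 (Fos, Jun, Junb, Ier2 and Zfp36), against 5.42% of all genes, and 5 without Smo-KO mouse 1 (Fos, Jun, Junb, Atf3 and Zfp36), against 8.88%. Without control mouse 4 the groups did not overlap for 2 genes, Fos and Jun, against 6.09% of all genes lower without overlap in the same livers. Without Smo-KO mouse 1 they did not overlap for Atf3 and Zfp36, against 7.91%. In none of these fits did a gene of the 10 reach an adjusted p of 0.05 in edgeR's test.

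Seen mouse by mouse, the 10 genes had their highest value of all 8 livers in control mouse 2 for 8 genes, which was so for 12.8% of all genes tested. Averaged over the genes, log2 CPM in control mice 1 to 4 stood 0.34, 0.99, 0.12 and -0.09 above the Smo-KO mean. Summed over the genes, the level was 890, 1216, 647 and 556 CPM for the control mice in order of number, beside 645, 607, 607 and 511 CPM for the Smo-KO mice. Control mice 3 and 4 were therefore close to the Smo-KO livers, and control mice 1 and 2 were higher. Smo-KO mouse 4 had the lowest value of all livers in 5 of the 10 genes, but the share of all genes lowest in this liver was not taken. The median coefficient of variation was 35.5% in control and 15.6% in Smo-KO livers, against 12.1% for all genes tested in each group, and 10 of 10 genes in control and 8 of 10 in Smo-KO livers varied more than the median gene.

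**Figure D3:**
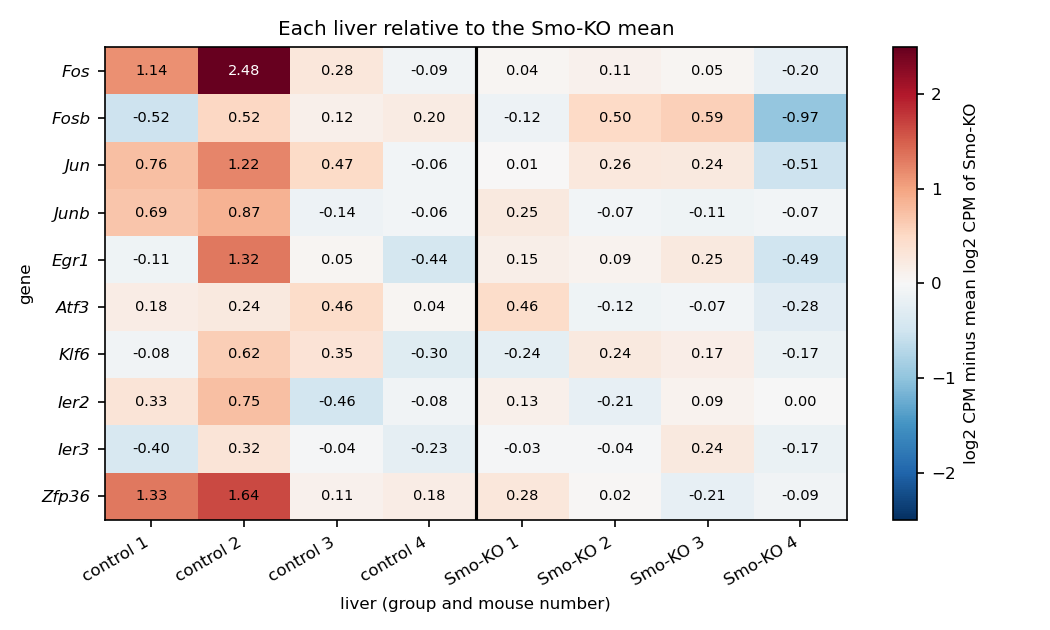
Log2 CPM of each immediate early gene (rows) in each liver (columns) minus the mean log2 CPM of the 4 Smo-KO livers, printed in the cells and colored from blue (lower) to red (higher). The reddest cells are Fos (2.48) and Zfp36 (1.64) in control mouse 2, followed by Zfp36 in control mouse 1 (1.33) and control mice 3 and 4 lie between -0.46 and 0.47.

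Levels of different genes were compared per kb of the longest annotated transcript. In control livers Junb was the most abundant, at 99.0 ± 34.7 CPM per kb (SD, n = 4), followed by Ier2 (57.0 ± 20.5), Zfp36 (55.8 ± 28.9) and Jun (52.8 ± 19.2), whose levels per kb did not differ beyond their spread. Atf3 (29.3 ± 3.62) and Klf6 (23.7 ± 6.77) were next and overlapped each other within 1 SD. Fos (11.7 ± 10.1) and Egr1 (10.4 ± 6.49) could not be ordered in control livers, and Ier3 (5.70 ± 1.26) and Fosb (0.422 ± 0.117) were lowest. In Smo-KO livers the order was the same for Junb (74.8 ± 9.19) and Ier2 (49.7 ± 5.08), but Jun (33.9 ± 7.62) stood before Zfp36 (28.6 ± 4.23), a difference within 1 SD, and Fos (4.72 ± 0.427) ranked below Egr1 (8.16 ± 1.69) and Ier3 (5.98 ± 0.732).

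Letters known from immediate early promoters were searched for around the start sites, and the stretches of Fos and Zfp36, which had the lowest fold changes, and of Junb, the most abundant per kb, are shown. RefSeq windows of GRCm38.p6 from 250 bases before to 50 bases after the start site were held for 8 of the 10 genes, all but Egr1 and Ier2. Both strands were searched for the TATA box (TATAAA), the cyclic AMP response element (TGACGTCA), the AP-1 site (TGANTCA), the EGR site (GCGGGGGCG or GCGTGGGCG) and the CArG box that serum response factor binds. A shorter element, TGACGT, which is also part of TGACGTCA, was added after the windows had been read. Capitals mark the matches, and each stretch ends 10 bases into the transcript. The first lies at chr12:85473814-85473899 on the plus strand, the second at chr7:28379219-28379343 on the minus strand and the third at chr8:84978739-84978758 on the minus strand.
Fos: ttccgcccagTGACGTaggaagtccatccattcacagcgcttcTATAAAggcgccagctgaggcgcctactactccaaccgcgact
Zfp36: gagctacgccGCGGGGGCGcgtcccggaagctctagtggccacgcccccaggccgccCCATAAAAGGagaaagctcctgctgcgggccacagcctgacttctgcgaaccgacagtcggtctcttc
Junb: acaaattcagTATAAAagct

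In Fos, TGACGT began 66 bases and TATAAA 33 bases before the start site. In Zfp36, whose RefSeq start site (28379228) lies downstream of the 5′ end of the gene in GENCODE (28380253), so that the stretch shown is inside the GENCODE gene, an EGR site began 105 bases and a CArG box 58 bases before it, and the CArG box was found in 1 of the 8 genes and in 1.58% of 10348 tested genes with such a window. In Junb, TATAAA began at the RefSeq start site itself, which lies 30 bases upstream of the 5′ end of the gene in GENCODE. TATAAA was thus found in 2 of 8 genes, against 9.28% of tested genes, and the EGR site in 2 of 8 (Fosb and Zfp36) against 7.65%. TGACGT was in 2 of 8 genes (Fos and Atf3) and in 12.8% of tested genes. Because TGACGT was added after these windows had been read, its count in them cannot be set against that share. The RefSeq start site of Atf3 (191183333) also lies inside its GENCODE gene, whose 5′ end is at 191218039. The full TGACGTCA and the AP-1 site were in 0 of 8 of these windows, and in 3.45% and 6.55% of tested genes. These matches are descriptions of letters and not of bound sites.

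At the other end of the mRNA, AU-rich letters were counted after the stop codon of the longest coding GENCODE transcript. The pentamer ATTTA occurred in 9 of the 10 genes, against 68.9% of 12391 tested genes, with a median of 2.89 against 1.29 per kb. Its counts were 4 in Fos, 4 in Jun, 2 in Junb, 2 in Egr1, 3 in Atf3, 3 in Zfp36, 5 in Ier3, 7 in Klf6, 1 in Fosb and 0 in Ier2. The nonamer TTATTTATT, which tristetraprolin binds best, occurred once each in 2 of the 10 genes, against 7.94% of tested genes (984 of them), and these were Fos and Zfp36. Both stretches are in the 3′ UTR on GRCm38, the Fos one at chr12:85477103-85477131 on the plus strand and the Zfp36 one at chr7:28376951-28376979 on the minus strand, with the nonamer in capitals.
Fos: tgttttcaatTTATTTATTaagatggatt
Zfp36: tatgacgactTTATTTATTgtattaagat

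The 10 transcripts were also short of introns, with a median of 2 exons against 9 for all tested genes, and Jun, Junb and Ier2 had 1 exon each.

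Further immediate early genes were read from a list of 23 other transcription factors, of which 22 were tested. At an unadjusted p under 0.05 in edgeR's test, 4 were lower and 2 were higher in Smo-KO livers, beside 7.15% of all genes lower and 13.8% in either direction, and the median log2 fold change of the list was -0.10. Irf1, the interferon-regulated factor, was at 126, 122, 105 and 120 CPM in control mice 1 to 4 and at 97.1, 72.2, 90.7 and 77.4 CPM in Smo-KO mice 1 to 4, without overlap of the groups (log2 fold change -0.49 ± 0.11 standard error, with 0.132 as adjusted p in edgeR's test). Nr4a2, an orphan nuclear receptor, also did not overlap, at 2.44 ± 0.678 CPM in control and 1.16 ± 0.525 CPM in Smo-KO livers (SD, n = 4 each), with a log2 fold change of -1.07 (standard error 0.33) and an adjusted p of 0.210 in that test. Nr4a2 rested on few reads, and its lowest control value (2.08 CPM, mouse 4) lay close to its highest Smo-KO value (1.81 CPM, mouse 4). The groups did not overlap for 3 of the 22 tested genes, all lower, against 4.34% of all genes lower without overlap. Jund, the Jun protein of resting cells and the most abundant of the list, was at 581 ± 112 CPM in control and 454 ± 61.5 CPM in Smo-KO livers (log2 fold change -0.36, standard error 0.14). The fourth lower gene was Klf2 (log2 fold change -0.26), named after its value was seen. Maff, a small Maf protein, and Klf10 had positive log2 fold changes of 0.52 (standard error 0.18) and 0.39 (standard error 0.15), and neither passed the adjusted test.

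Of 30 feedback and effector genes that respond with the same timing, such as phosphatases of MAP kinases, 29 were tested. At an unadjusted p under 0.05, 2 were lower and 0 were higher, a share near the 7.15% of all genes lower at that p, and their median log2 fold change was -0.13. Like Zfp36, Ccn1, a matricellular protein induced by YAP and by serum, was higher in control mice 1 and 2 than in all other livers. It was at 68.7, 65.3, 35.9 and 34.6 CPM in control mice 1 to 4 and at 36.8, 32.5, 23.7 and 21.5 CPM in Smo-KO mice 1 to 4 (log2 fold change -0.83 ± 0.24 standard error, with 0.178 as adjusted p in edgeR's test). Dusp2, a phosphatase of MAP kinases found mainly in immune cells, was at 7.86 ± 1.65 CPM in control and 5.30 ± 1.22 CPM in Smo-KO livers (SD, n = 4 each), and its log2 fold change was -0.57 (standard error 0.21). Errfi1, a brake on the EGF receptor and the most abundant of the list, was at 734 ± 135 and 733 ± 173 CPM. Control mouse 2 was the highest of all 8 livers in 13 of the 29 genes, beside 12.8% of all genes tested. It was also highest in 6 of the 22 other transcription factors tested. In the lists described next it was highest in 8 of 30 upstream genes and in 2 of 10 AP-1 partners and repressors.

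Upstream, 30 kinases, receptors and transcription factors that act on these genes were all tested, with 4 lower and 2 higher at an unadjusted p under 0.05, beside 7.15% of all genes lower and 13.8% in either direction, and a median log2 fold change of -0.05. Atf4, a factor of the integrated stress response, did not overlap between groups, at 215 ± 30.9 CPM in control and 161 ± 14.2 CPM in Smo-KO livers (SD, n = 4 each), and its log2 fold change of -0.42 (standard error 0.11) had an adjusted p of 0.163 in edgeR's test. It was the 1 gene of the 30 lower without overlap, a share near the 4.34% of all genes. A further 1 of the 30 was higher without overlap, a direction whose share over all genes was not taken. Mapkapk2, the kinase through which p38 acts on Zfp36 protein, had a log2 fold change of -0.23 (standard error 0.09), Nfkb1, the NF-κB p50 precursor, one of -0.24 (standard error 0.10), and Egfr, the EGF receptor, one of 0.63 (standard error 0.26). The others past that p, Elk1 (-0.40) and Met (0.24), were named after their values were seen. The most abundant of the list, Map2k2, was at 241 ± 28.4 and 244 ± 17.6 CPM. In 10 further AP-1 partners and repressors, 2 were lower and 0 higher, beside the same 7.15% lower, Batf2 (log2 fold change -1.07, standard error 0.21, no overlap of the groups) and Ddit3 (log2 fold change -0.52, standard error 0.18). Batf2 was the 1 gene of these 10 without overlap, beside 4.34% of all genes lower without overlap.

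**Figure D4:**
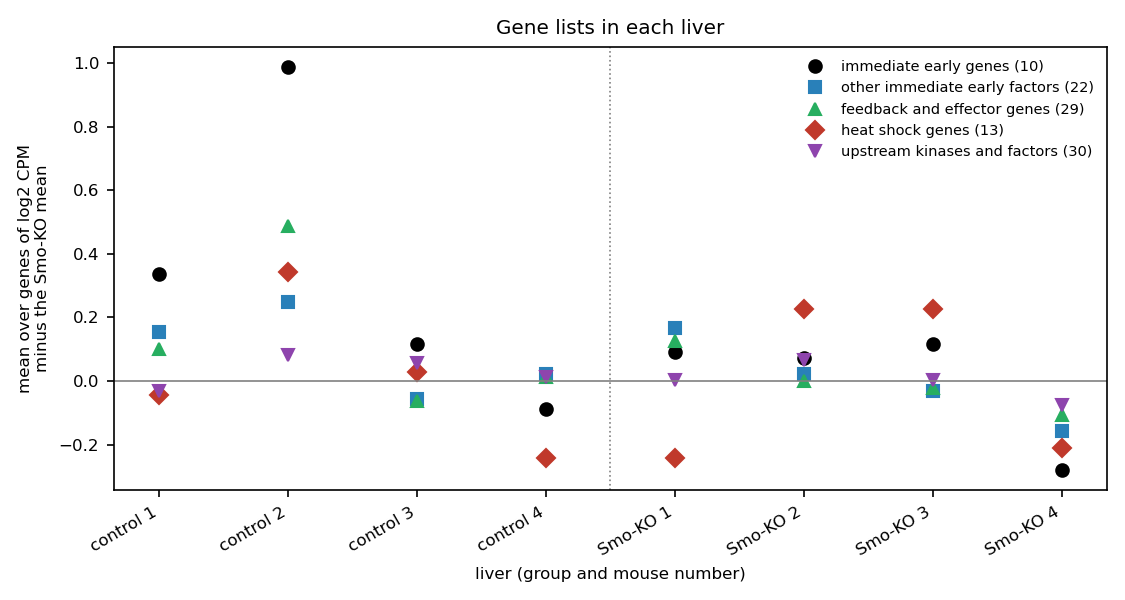
Mean over the genes of a list of log2 CPM minus the Smo-KO mean (y axis) in each liver (x axis), 1 symbol per list, with the number of genes tested in brackets. The 10 immediate early genes reach 0.99 in control mouse 2 and 0.34 in control mouse 1, the feedback and effector genes 0.49 and 0.10, and the upstream list stays within 0.08 of 0 in all livers.

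Other measures also set control mouse 2 apart from the other control mice. Heat shock genes, which respond to tissue stress, were highest of all 8 livers in control mouse 2 in 9 of 13 genes, against 12.8% of all genes tested. Their mean log2 CPM there stood 0.34 above the Smo-KO mean. In control mouse 1 the heat shock mean was at -0.04 relative to the Smo-KO mean, while the immediate early genes were at 0.34. In Smo-KO mice 2 and 3 the heat shock mean stood 0.23 above the Smo-KO mean for each, while the immediate early genes stood 0.07 and 0.12 above it. Of the 13, 1 was higher and 1 lower at an unadjusted p under 0.05, beside 13.8% of all genes in either direction. Hspe1 was higher (log2 fold change 0.28, standard error 0.10) and Bag3 was lower (log2 fold change -0.33, standard error 0.12), and Hspa8, the most abundant, was at 1148 ± 141 and 1189 ± 255 CPM (SD, n = 4 each). Reads on no gene made up 9.32% of the reads in control mouse 2, against 7.56% to 8.38% in the other control mice and 8.97% to 9.68% in Smo-KO mice. The part of these measures in the result was not tested.

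Markers of other liver cells were summed in each liver, since non-parenchymal cells also express immediate early genes. The T and NK cell list, with 7 of 8 markers counted, was at 47.5, 43.8, 38.9 and 53.5 CPM in control mice 1 to 4 and at 21.2, 19.2, 32.6 and 31.3 CPM in Smo-KO mice 1 to 4, without overlap (exact permutation test, two-sided p = 0.0286, and 0.257 after adjustment over the 9 marker lists). All 5 tested markers of this list (Cd3e, Cd3g, Cd8a and Nkg7, and Cd3d, named after its value was seen) were lower at an unadjusted p under 0.05 in edgeR's test, as were 7.15% of all genes, while 0 passed after adjustment, and Nkg7, the most abundant, was at 14.5 ± 3.09 CPM in control and 7.59 ± 2.44 CPM in Smo-KO livers. Control mice 1 and 2 were not the highest of the control mice in this sum, in which mouse 4 led. The hepatocyte list had 7 of 8 markers tested, 1 of them lower at an unadjusted p under 0.05, beside the same 7.15% (Cps1, log2 fold change -0.33, standard error 0.10), and was led by Alb at 16570 ± 973 and 15338 ± 897 CPM. Kupffer cell and macrophage markers, led by Cd5l (590 ± 136 and 563 ± 131 CPM), were lowest among control mice in mouse 2, at 1138 CPM against 1330 to 1747 CPM. Sums of the sinusoidal endothelial (most abundant gene Stab1), stellate (Col3a1), cholangiocyte (Spp1), neutrophil (Csf3r, with Ly6g at 0 reads), and B cell (Cd79b) lists had differences between groups smaller than 1 SD over mice, with exact permutation p from 0.429 to 1. Single genes of these lists with an unadjusted p under 0.05 in edgeR's test were Pecam1 (log2 fold change -0.50, standard error 0.20) among the endothelial and Col1a1 (-0.36, standard error 0.13) among the stellate markers, and there were 0 in the Kupffer cell, cholangiocyte, neutrophil and B cell lists. Of the 8 endothelial markers 6 were lower and 2 higher, beside 50.1% of all genes lower. Their median log2 fold change was -0.26, while that of Stab1, which led the sum, was 0.29 (standard error 0.14). Of the red blood cell markers, the 4 globin genes were listed at 0 reads in all livers, where reads shared by near-identical globin copies may not have been counted, so these zeros say nothing of red blood cells, and Alas2 was at 111 ± 16.7 and 107 ± 16.6 CPM. The part of cell composition in the immediate early genes was not tested.

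Outside the 10, the genes whose log2 CPM over the 8 livers was most like the mean standardized profile of the immediate early genes were Ubqln4 (Pearson's r 0.958, Spearman's rho 0.786), Evc (0.954 and 0.905), Itsn2 (0.953 and 0.643), Ubap2l (0.953 and 0.929) and Ash1l (0.942 and 0.643), the highest of 12967 genes and therefore a description only. Without both control mouse 2 and Smo-KO mouse 4, the livers farthest from the median, r was 0.619 for Ubqln4, 0.787 for Evc, 0.221 for Itsn2, 0.814 for Ubap2l and 0.333 for Ash1l. Of the 51 other immediate early genes compared, Dusp6 and Rhob, named after their values were seen, ranked highest, at ranks 6 and 9 with r of 0.941 and 0.921, and 5 of the 51 were among the 129 genes of the top 1%. For these 51 genes r was not taken without control mouse 2 and Smo-KO mouse 4, so how far it rests on those livers is not known.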

How the data were processed

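The authors deposited 1 list of raw read counts per gene symbol for each liver. The submitters' processing notes name fastp, STAR 2.7.5, featureCounts 2.0.1 and build GRCm38, while the closing entries of the lists (reads on no gene or on more than 1) have the form of htseq-count. These entries held 7.56% to 9.68% and 2.45% to 2.61% of the reads and were left out. Annotation and strand setting are not given in the sources used here, so reads of a gene and an antisense partner cannot be told apart.

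From these counts, edgeR 4.0.16 in R 4.3.3 was run on all genes (filterByExpr, TMM, glmQLFit and glmQLFTest with group as the only term, Benjamini-Hochberg adjustment), with standard errors implied by its F statistic. DESeq2 1.42.0 was an alternative test. Log2 CPM used a prior count of 2. Single values were compared over the 70 assignments of 4 of 8 mice. The procedure was tested on simulated data, with an outcome that is not reported here. Libraries of a group differed by 8.17 to 18.5 times sampling noise in chi-square, so none was a copy. GENCODE M21 gave transcripts and lengths, and RefSeq the start-site windows. Intervals of depth cover counting error only.

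The 10 genes, the lists and the rules for naming genes were chosen with earlier results of these data known. The rule for genes named was the 10, Smo, the genes of each list with an unadjusted p under 0.05 (at most 4), its most abundant gene, and the 5 genes most like the 10. All of these are given except 1 list gene, which is not reported here. Klf2, Elk1, Met, Cd3d, Dusp6 and Rhob fall outside the rule and were named after their values were seen. Alternatives were other scalings, tests and filters, the replicate number as a block, another prior count and gene length, and each mouse left out. Whether the 4 mice of a group shared a cage or litter is not given in the sources used here.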

Additional observations from a re-analysis of the deposited data

Results flagged for a closer look

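In 128 groups of 4 livers examined (64 measures in each genotype), 10 held a liver far from the other 3, by a criterion that chance meets in about 1 of 20 groups (6.4 here). No explanation was weighed for any of them.

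Junb was at 160 CPM in Smo-KO mouse 1, against 125 to 128 CPM in the other Smo-KO mice. The mean log2 CPM of the 10 immediate early genes was 4.77 in Smo-KO mouse 4, against 5.12 to 5.17 in the others. The summed level of the feedback and effector genes was 2601 CPM in Smo-KO mouse 2, against 2206 to 2230 CPM. Nr4a2 was at 3.46 CPM in control mouse 2, against 2.08 to 2.15 CPM. Dusp2 was at 3.49 CPM in Smo-KO mouse 2, against 5.65 to 6.08 CPM. Map2k2 was at 218 CPM in Smo-KO mouse 2, against 250.3 to 255 CPM. Ddit3 was at 55.5 CPM in control mouse 1, against 39.2 to 41.3 CPM, and Cd8a was at 11.0 CPM in the same mouse, against 9.44 to 9.54 CPM. The B cell markers summed to 7.34 CPM in control mouse 2, against 9.19 to 9.30 CPM. Reads on genes were 8203299 in Smo-KO mouse 3, against 9367795 to 9543675 in the others. The high values of Fos, Egr1 and Zfp36 in control mouse 2 did not meet the criterion. Egr1, at 89.9 CPM against 26.4 to 37.3 CPM in the other control mice, missed it only narrowly.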

How the results depend on the processing

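Of 139 fold changes of the 10 genes under the alternatives, 130 kept their sign and 9 did not, all 9 when a mouse was left out, and the cause was not tested. Over the fits without 1 mouse, log2 fold changes ran from -0.21 to 0.21 for Fosb, from -0.54 to 0.18 for Egr1, from -0.36 to 0.045 for Ier2, from -0.029 to 0.22 for Ier3 and from -0.30 to 0.0028 for Klf6. Those of Fos (-1.57 to -0.52), Zfp36 (-1.16 to -0.64) and Jun (-0.81 to -0.39) stayed below 0, with adjusted p over all alternatives from 0.144 to 0.450, from 0.0916 to 0.414 and from 0.0815 to 0.494. Junb ran from -0.54 to -0.21 and Atf3 from -0.38 to -0.12. Genes of the 10 at an unadjusted p under 0.05 ran from 1 to 5, while 5.07% to 8.88% of all genes were lower at that p in the same fits, and those without overlap ran from 0 to 2, while 3.26% to 7.91% of all genes were lower without overlap. The median log2 fold change ran from -0.42 to -0.10. Fosb had too few reads for the filter of 10 counts in every sample. Smo passed an adjusted p of 0.05 with DESeq2 (log2 fold change -0.87), with no filter (-0.88) and without Smo-KO mouse 1 (its range without 1 mouse was -0.997 to -0.81). Over all genes, the calls were 0 in edgeR's test with 1797 at an unadjusted p under 0.05, 167 with DESeq2, 61 with no filter, 8 with the replicate number as a block, and from 0 to 78 without 1 mouse (78 without Smo-KO mouse 1, 5 without control mouse 1 and 4 without Smo-KO mouse 3). The numbers were not taken as pairs, because same-numbered mice correlated at 0.104, 0.187, 0.061 and 0.113, not all over 0.1, and under the block 4 of the 10 genes had an unadjusted p under 0.05 in place of 3, against 8.45% of all genes lower at that p. Fosb rested on the fewest reads of the 10, from 7 to 20 per liver.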
